A study of Homo sapiens with 9 samples.

Results

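Interferon-stimulated and DNA sensing genes were examined in human spinal cord organoids (SCOs) exposed to valproic acid (VPA), with or without Rapamycin. The members are 39 genes taken by symbol from a list, out of 31589 genes in the count tables, with raw counts read in all 9 libraries. Of these, 37 had a row in at least 1 table, and OAS2 and IFI44 were not analysed here. A further 5 had a mean below 10 counts over the 9 libraries and are set apart, which left 32. SCOs are aggregates grown from induced pluripotent stem cells that form neural tube-like tissue. The cells were of the WTC line, labelled WT in genotype. The study grew SCOs from 3 clones carrying a SOX10 reporter, so every group shares 1 genetic background and an edited locus. The paper reports that some of these clones also carried indels on the other SOX10 allele. Several SCOs of a clone were pooled for each RNA sample. The 3 vehicle libraries came from SCOs kept with FGF alone. Another 3 came from SCOs given VPA, an inhibitor of histone deacetylases, and 3 from SCOs given VPA + Rapamycin, the latter an inhibitor of mTOR. In the paper's description VPA was given together with FGF. The labels give an exposure of 96 h in each, while the paper's text describes a shorter one for its first experiment with VPA. The labels number the libraries 1 to 3 in each condition and give libraries of the same number a shared code across conditions. Neither the number nor the code is tied to a clone there, while the paper describes each library of a condition as 1 of the 3 clones. The p-values thus measure the spread between these libraries, which may hold clone differences and may in part be technical.

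Cells sense foreign or misplaced nucleic acids with receptors such as DDX58 (RIG-I), IFIH1 (MDA5) and IFI16, whose signals pass through the adaptors MAVS and TMEM173 (STING) to IRF3 and IRF7, transcription factors that switch on interferon genes. Secreted type I interferon binds its receptor and activates a complex that holds STAT2 and IRF9. This complex binds the interferon-stimulated response element (ISRE) in promoters of antiviral genes. Many of these genes are also transcribed at a low level without infection, and stem cells are known to keep a part of the set active at rest.

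The ISRE core, searched as GAAANNGAAA on both strands, was found in 19 of the 30 member promoters given by RefSeq (63.3%), against 1255 of 35116 promoters overall (3.57%). A promoter here runs from 250 bases before to 50 bases after the gene start, on GRCh38.p14. Promoters of IRF2, IRF3, IRF7, TMEM173, IFIT2, IFITM2, OAS2, GBP2 and TRIM22 had no entry. The shorter motif GAS, searched as TTCNNNGAA, can overlap the ISRE core and was in 9 of the 30, against 7.66% of all promoters. The sequences below are those of the members that were lower with Rapamycin added to VPA and hold a core, with DTX3L, which lies head to head with PARP9, and IFI6, which rose with VPA. Each is 30 bases long, reads 5′ to 3′ on the strand of the gene, and shows the core nearest to the gene start in capitals (a core starting with TTTC lies on the opposite strand).
BST2 (chr19:17405735-17405764, minus strand): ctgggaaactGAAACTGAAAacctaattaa
ISG15 (chr1:1013380-1013409, plus strand): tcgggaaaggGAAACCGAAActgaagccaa
IFIT1 (chr10:89392510-89392539, plus strand): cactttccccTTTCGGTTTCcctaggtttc
MX1 (chr21:41431844-41431873, plus strand): ggtcactctgTTTCTCTTTCcgtgaataaa
PARP14 (chr3:122680800-122680829, plus strand): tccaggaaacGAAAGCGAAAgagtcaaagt
PARP9 (chr3:122564322-122564351, minus strand): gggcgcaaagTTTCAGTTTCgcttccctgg
DTX3L (chr3:122564322-122564351, plus strand): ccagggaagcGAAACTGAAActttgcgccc
IFI6 (chr1:27672266-27672295, minus strand): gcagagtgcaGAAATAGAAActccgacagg
PARP9 and DTX3L shared the same window, read from opposite strands, and thus 1 core. The core began 41 bases before the start of PARP9 and 6 bases before that of DTX3L. BST2, ISG15 and IFIT1 each held a pair of cores, starting 130 and 124, 113 and 107, and 116 and 103 bases before the gene start. A match gives the letters in the window and is no evidence that a factor bound there.

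**Figure D1:**
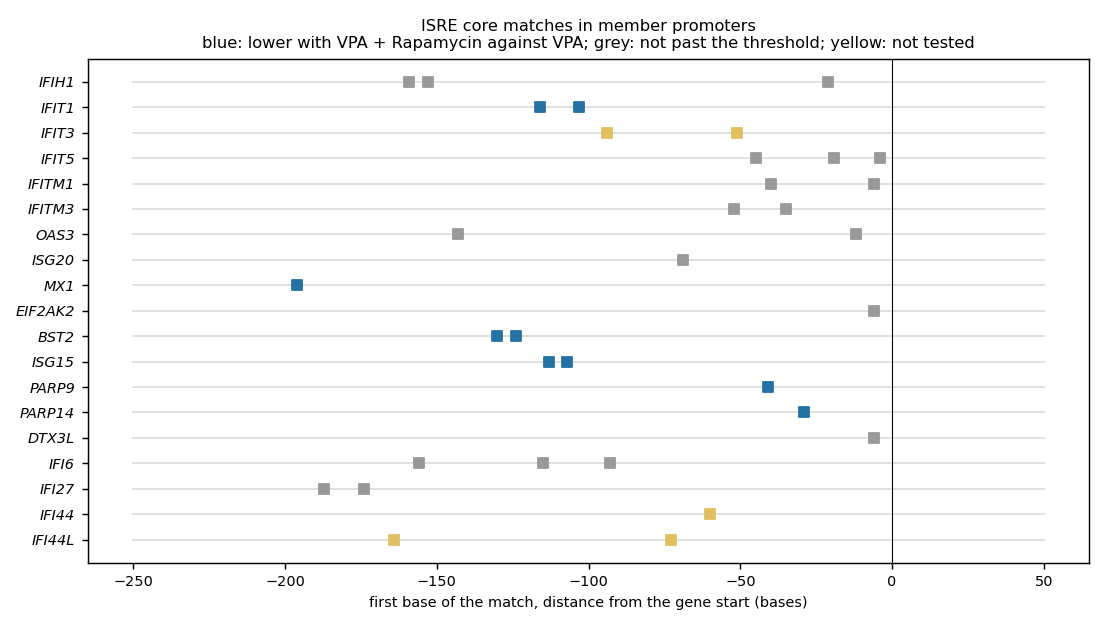
Position of each ISRE core match (square, first base of the match) in the member promoters that hold one, as distance in bases from the gene start. Blue marks members lower with VPA + Rapamycin than with VPA, grey those not past the threshold and yellow those not tested; the 6 blue genes have matches between 196 and 29 bases before the start.

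Libraries held 15290436 to 17417478 counts on genes, and a count of 0 in a library allows a normalized level of up to 2.82 to 3.26 (3 counts, counting error only). Replicates of a condition differed by more than counting noise in every pair, with a chi-square per gene of 4.75 (VPA replicates 1 and 2) to 39.1 (vehicle replicates 1 and 3). Vehicle replicate 3 stood apart in some neural crest and mesenchymal genes, with 307 counts of TFAP2B against 2 in each of the other vehicle libraries. LUM was counted 578 times there, against 82 and 67. Other genes of these lists went the other way, with the lowest vehicle counts of SOX10 (230), NGFR (1557) and COL1A1 (1163) in that library. HOX genes of spinal cord position were present, with a summed normalized level of 3822 to 6062 in vehicle libraries, 2098 to 2478 with VPA and 2785 to 3621 with VPA + Rapamycin. Of these 6 genes, 6 were lower with VPA and 3 higher with Rapamycin added, and the part of this shift in the results was not tested. Of 8 immune markers, 4 had a row, AIF1, CSF1R, CD14 and CX3CR1, and none of these passed 14 counts in a library. SCOs are mixtures, and in bulk RNA fewer cells of a type and less RNA per cell cannot be told apart.

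In vehicle-treated SCOs a part of the set was transcribed without an added stimulus. On the scale of FPKM, reads per length and depth as deposited, 23 of the 32 members had a mean above 1. IFITM3, a membrane protein that restricts virus entry, had the highest mean level at 52.1 ± 14.1 FPKM (SD, n = 3). ISG15, a ubiquitin-like protein conjugated to targets after interferon, followed at 20.04 ± 5.77 FPKM, and these ranges were apart from each other. IFITM1 (11.8 ± 6.88 FPKM), IFITM2 (11 ± 3.47), IFI6 (9.93 ± 2.52), STAT2 (9.56 ± 0.653) and MAVS (8.41 ± 1.12) came next and did not differ beyond their spread. At the low end were MX1 (0.149 ± 0.0598 FPKM), IFIH1 (0.158 ± 0.00349), IRF1 (0.169 ± 0.0859), ISG20 (0.171 ± 0.0603) and OAS3 (0.175 ± 0.173). IFITM1 and IFITM2 share 351 exon bases on the same strand, so the split of reads between them is uncertain.

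**Figure D2:**
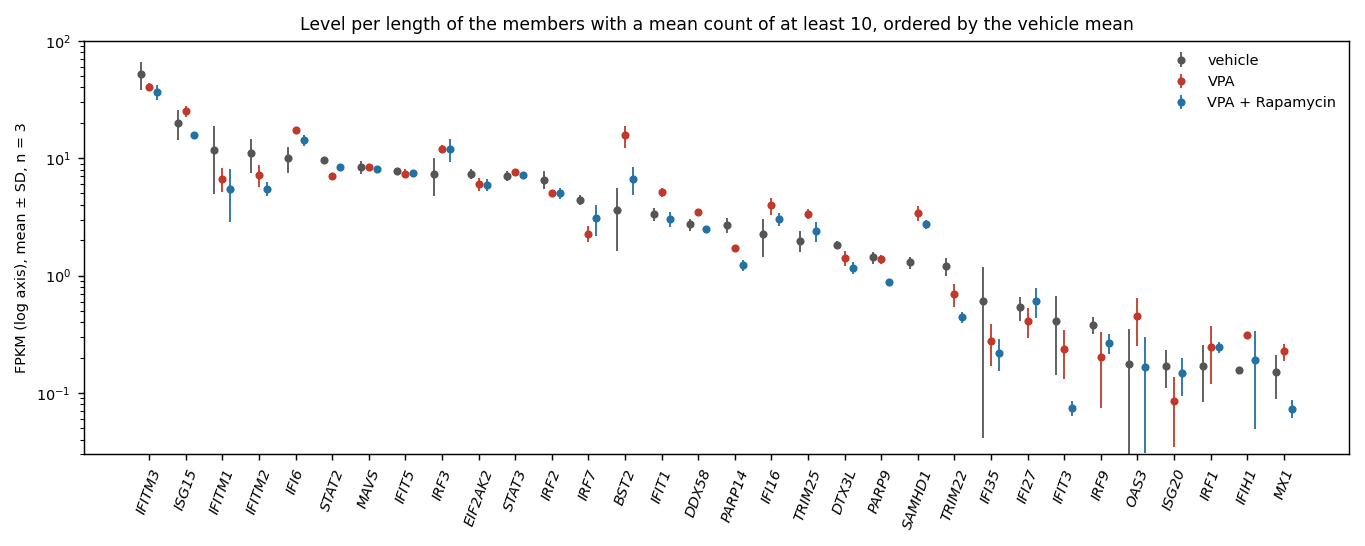
Level of the 32 members with a mean of at least 10 counts, in FPKM on a log axis (points, mean; bars, SD, n = 3), ordered by the vehicle mean. IFITM3 lies at the top in all 3 conditions, and 23 members exceed 1 FPKM in vehicle.

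Interferon itself was near the limit of detection. Of 13 interferon genes listed, 2 had rows, IFNE and IFNK, and neither passed 9 counts in any library. IFNAR1, a receptor chain for type I interferon, was counted 827, 811 and 1033 times in vehicle. CGAS, the cytosolic DNA sensor that makes the ligand of STING, was counted 5, 3 and 14 times. TMEM173, which encodes STING, was at 0 in all VPA + Rapamycin libraries and at most 6 counts elsewhere, so TMEM173 could not be compared at this depth. CGAS was below the low-count filter of edgeR, and DESeq2 gave it a log2 fold change of -0.84 with VPA (adjusted p = 0.657). The other members set apart by low counts were IFIT2 (highest count 7), GBP2 (2), IFI44L (16, in vehicle replicate 3, with at most 4 elsewhere) and OAS1 (23).

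The first comparison asks how VPA alone altered the set. VPA raised 8 members and lowered 4 of the 33 tested, while 21 did not pass the threshold (edgeR quasi-likelihood test, adjusted p of at most 0.05). The members raised were BST2, SAMHD1, OAS1, IFI16, IFI6, TRIM25, IRF3 and IFIT1, and those lowered were IRF7, TRIM22, PARP14 and STAT2. Among all 17360 genes tested, 16.4% were higher and 15.7% lower (32.1% in either direction), against 24.2% and 12.1% of the members (36.4%). These member shares count OAS1, which is set apart by low counts. The share of members called was thus near that of all genes, and the median log2 fold change of the members was -0.05, beside -0.00 for all genes. Ranges of the 3 libraries did not overlap in 10 members with VPA higher and 5 with VPA lower, where all genes gave 24.9% and 22.6%.

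**Figure D3:**
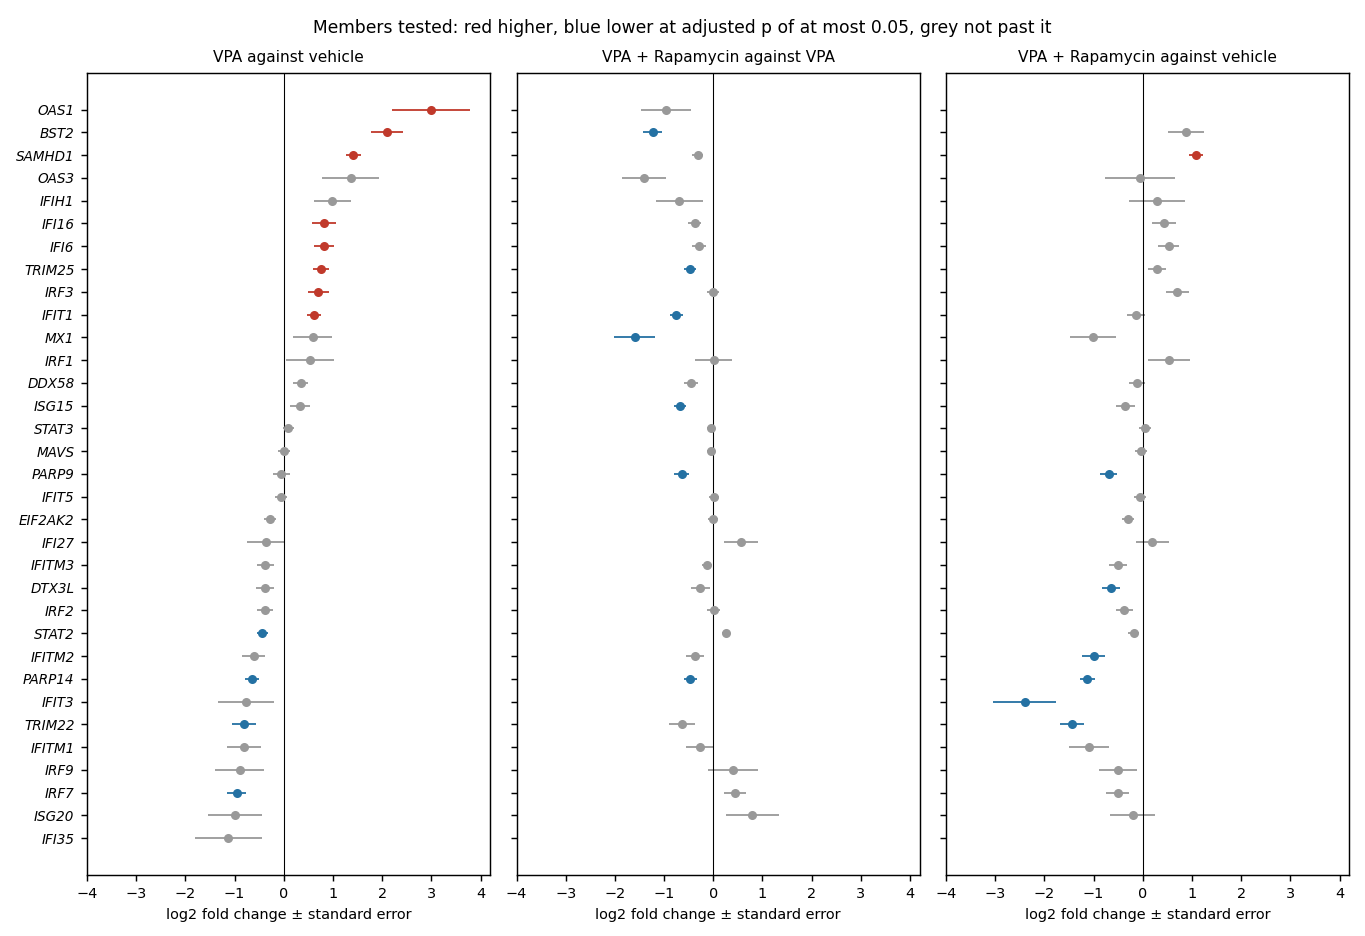
Log2 fold change (points) and its standard error (bars) of the members tested in each of the 3 comparisons, ordered by VPA against vehicle. Red is higher and blue lower at an adjusted p of at most 0.05, grey is not past it; the middle panel holds 7 blue and 0 red members.

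BST2 (tetherin; ENSG00000130303, chr19:17402939-17405648), which holds budding virus at the cell surface, was counted 110, 54 and 34 times in vehicle, 368, 254 and 270 times with VPA, and 153, 90 and 129 times with VPA + Rapamycin. Each VPA library lay above all of the others, and the vehicle and VPA + Rapamycin ranges overlapped. The level with VPA was 4.31-fold that in vehicle (log2 fold change 2.11 ± 0.33 SE, adjusted p = 0.00084).

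SAMHD1 (ENSG00000101347, chr20:36889773-36951901) encodes a phosphohydrolase that depletes deoxynucleotides and limits reverse transcription. Its counts were 219, 249 and 234 in vehicle, 574, 738 and 658 with VPA, and 572, 501 and 483 with VPA + Rapamycin. All libraries with VPA, alone or with Rapamycin, were above all vehicle libraries. The rise was 2.65-fold with VPA (log2 fold change 1.41 ± 0.15 SE, adjusted p = 0.000103).

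Among the sensors and adaptors, IFI16, a nuclear DNA sensor, was the member called. It was counted 282, 166 and 132 times in vehicle, 308, 408 and 352 times with VPA, and 306, 278 and 226 times with VPA + Rapamycin, and rose by 0.82 ± 0.24 SE in log2 with VPA (adjusted p = 0.0213). The RNA sensors had positive estimates that did not pass, with log2 fold changes of 0.34 ± 0.16 SE for DDX58 (adjusted p = 0.116) and 0.99 ± 0.38 SE for IFIH1 (adjusted p = 0.0682). For both the VPA range lay above the vehicle range, with IFIH1 at 14, 12 and 13 counts in vehicle and 28, 25 and 29 with VPA. MAVS, the mitochondrial adaptor of both, had an estimate of 0.01 ± 0.12 SE.

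The transcription factors moved in both directions. IRF3, which carries the signal of the sensors to the nucleus, was counted 664, 379 and 319 times in vehicle and 785, 683 and 861 times with VPA, a log2 rise of 0.71 ± 0.21 SE (adjusted p = 0.0229). IRF3 shares 734 of its 3794 exon bases with BCL2L12 on the opposite strand, whose mean count was 576 beside 664 for IRF3, so some of its reads may belong to BCL2L12. IRF7, which is itself induced by interferon and amplifies the response, was counted 220, 176 and 168 times in vehicle, 84, 102 and 120 with VPA, and 171, 155 and 87 with VPA + Rapamycin. Every VPA library of IRF7 was below every vehicle library, and it fell by 0.96 in log2 (SE 0.20, adjusted p = 0.00398).

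STAT2, a subunit of the complex that binds the ISRE, was counted 1043, 918 and 864 times in vehicle, 748, 669 and 786 with VPA, and 867, 882 and 832 with VPA + Rapamycin. The VPA range was below both of the others, and the log2 fold change with VPA was -0.44 ± 0.11 SE (adjusted p = 0.0128). STAT3 (0.09 ± 0.11 SE), IRF1 (0.53 ± 0.49), IRF2 (-0.39 ± 0.16) and IRF9 (-0.90 ± 0.49) did not pass in log2 fold change. IRF9 also shares 1838 exon bases with AL136295.5 on the same strand.

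Of the IFIT proteins, which bind viral RNA, IFIT1 rose with counts of 303, 212 and 234 in vehicle and 391, 358 and 459 with VPA (log2 fold change 0.61 ± 0.15 SE, adjusted p = 0.0102). The neighbouring IFIT5 had an estimate of -0.07 ± 0.12 SE and IFIT3 of -0.77 ± 0.57 SE, neither of which passed. The 3 IFITM genes all had negative estimates with VPA, from -0.82 to -0.38 in log2, and 0 passed by edgeR with 3 at an unadjusted p under 0.05, while DESeq2 called 2. IFITM1 was counted 362, 144 and 121 times in vehicle and 155, 97 and 118 with VPA, so that its vehicle mean rested on vehicle replicate 1.

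OAS1 makes the second messenger that activates RNase L, and rose from 0, 5 and 1 counts in vehicle to 23, 11 and 20 with VPA (log2 fold change 3.00 ± 0.80 SE, adjusted p = 0.0147). It is among the members set apart by low counts, and it passed the low-count filter only through its VPA libraries. Its call is thus no support for a rise, and without it 7 of the members raised remain. OAS3 ran from 14, 47 and 7 counts in vehicle to 52, 91 and 44 with VPA, with ranges that overlapped and an estimate of 1.36 ± 0.58 SE that did not pass (adjusted p = 0.0962).

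IFI6, a small membrane protein with antiviral action, was counted 177, 94 and 148 times in vehicle, 243, 253 and 275 with VPA, and 216, 235 and 173 with VPA + Rapamycin. The VPA range was above both of the others, and the rise over vehicle was 0.81 ± 0.20 SE in log2 (adjusted p = 0.0106). TRIM25, a ubiquitin ligase that helps to activate RIG-I, was counted 374, 303 and 236 times in vehicle and 577, 461 and 594 with VPA, a rise of 0.76 ± 0.16 SE in log2 (adjusted p = 0.00538). Its exons overlap those of DGKE by 80 bases and of C17orf67 by 132 bases.

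The antiviral ligase TRIM22 was counted 121, 132 and 98 times in vehicle, 53, 75 and 85 with VPA, and 40, 51 and 44 with VPA + Rapamycin. The 3 conditions did not overlap, and the log2 fold change with VPA was -0.80 ± 0.25 SE (adjusted p = 0.0287). PARP14, an ADP-ribosyltransferase that modulates STAT signalling, was counted 474, 494 and 394 times in vehicle, 300, 314 and 302 with VPA, and 244, 198 and 208 with VPA + Rapamycin. It stepped down in the same order with no overlap, by 0.65 in log2 with VPA (log2 fold change -0.65 ± 0.14 SE, adjusted p = 0.006).

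Leaving out VPA replicate 3 reduced the members raised from 8 to 4, while all genes raised went from 2840 to 1831. The members lowered went from 4 to 2 without vehicle replicate 2, VPA replicate 1 or VPA replicate 2, and to 8 without vehicle replicate 3. All genes lowered went from 2728 to 1929, 1708, 1599 and 3150 in the same fits, in that order. The calls of BST2, SAMHD1, IRF7, TRIM25, PARP14 and IFI6 were kept in each such fit, while those of STAT2, IRF3, IFI16, IFIT1, OAS1 and TRIM22 were lost in at least 1 (adjusted p up to 0.0798, 0.0937, 0.1, 0.0558, 0.0644 and 0.12, respectively). Vehicle replicate 1 had the highest vehicle level in 21 of the 32 members (65.6%, beside 39.3% of all genes tested), and vehicle replicate 3 the lowest in 21 (65.6%, beside 40.1%).

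The second comparison asks what Rapamycin altered when it was given with VPA. Of 31 members tested, 7 were lower with VPA + Rapamycin than with VPA and 0 were higher (edgeR quasi-likelihood test). The 7 were BST2, IFIT1, ISG15, MX1, PARP9, TRIM25 and PARP14. This was 22.6% of the members, where 3.73% of all 17317 genes tested were lower and 3.01% higher (6.74% in either direction). The member share counts MX1, which passed the low-count filter only with its VPA libraries. DESeq2 also called 7 lower and 0 higher, and 13 members had an unadjusted p under 0.05 in either direction. Estimates were below 0 for 23 of the 31, with a median log2 fold change of -0.29 beside 0.00 for all genes. Ranges lay apart with VPA + Rapamycin lower in 13 members and higher in 1, STAT2, where all genes gave 13.2% and 12.2%.

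**Figure D4:**
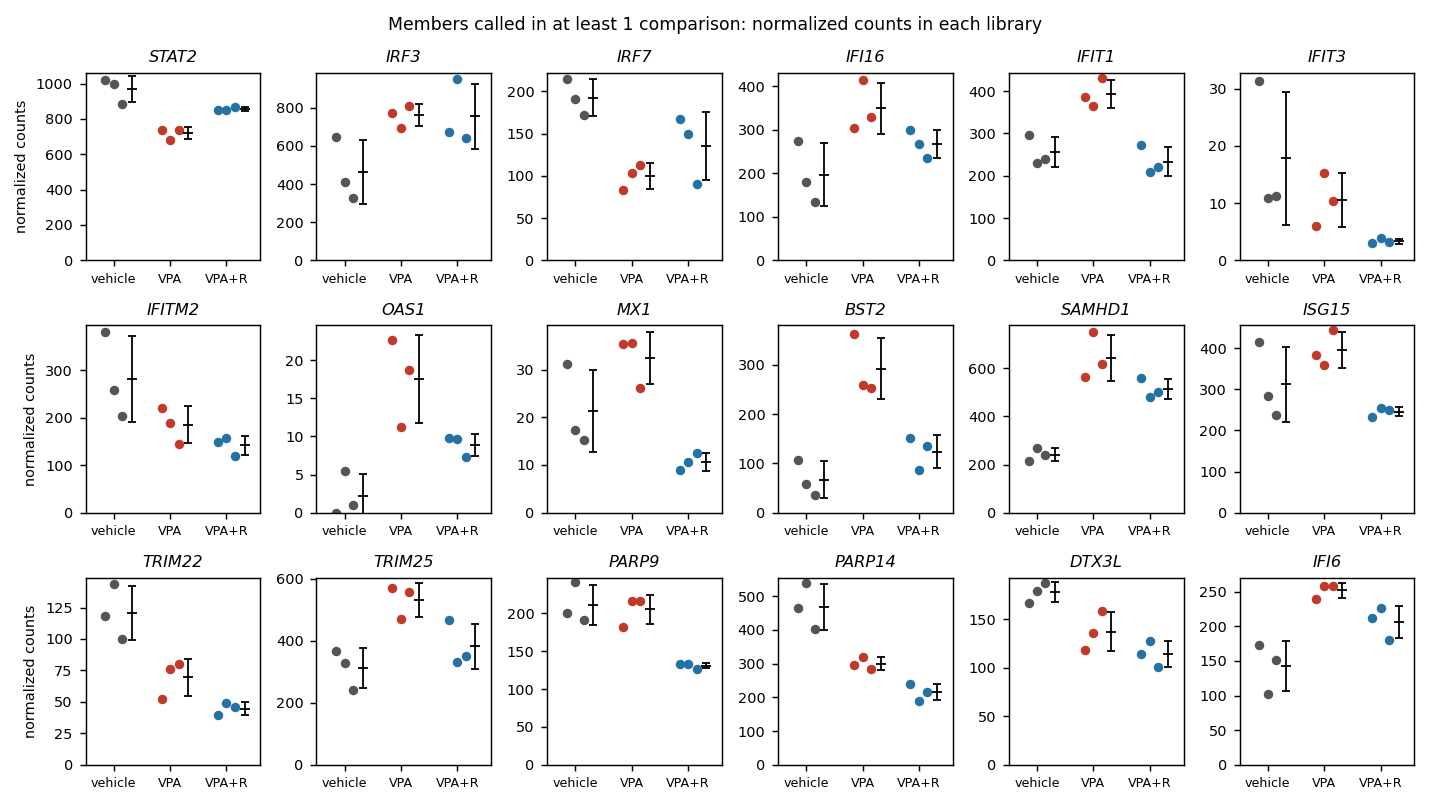
Normalized counts of the 18 members called in at least 1 comparison, by library (points; grey vehicle, red VPA, blue VPA + Rapamycin), with mean ± SD (n = 3). BST2, IFIT1 and TRIM25 are high with VPA alone, PARP14 and TRIM22 step down through the conditions, and SAMHD1 is high in both conditions with VPA.

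The BST2 counts given above fell by 1.24 in log2 with Rapamycin added (log2 fold change -1.24 ± 0.19 SE, adjusted p = 0.000791), to 0.42-fold of the level with VPA. IFIT1 was counted 278, 216 and 211 times with VPA + Rapamycin, below all 3 VPA libraries, with a log2 fold change of -0.75 ± 0.13 SE (adjusted p = 0.00189). These counts of IFIT1 overlapped those of vehicle.

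ISG15 was counted 425, 261 and 233 times in vehicle, 389, 352 and 474 with VPA, and 238, 264 and 240 with VPA + Rapamycin. VPA libraries were all above those with Rapamycin, while the vehicle range spanned most of both. The log2 fold change was -0.68 ± 0.12 SE with Rapamycin added (adjusted p = 0.00219), after an estimate of 0.33 ± 0.20 SE with VPA that did not pass (adjusted p = 0.218).

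MX1, a GTPase that traps viral nucleocapsids, was scarce, at 32, 16 and 15 counts in vehicle, 36, 35 and 28 with VPA, and 9, 11 and 12 with VPA + Rapamycin. The VPA + Rapamycin libraries were below those of both other conditions. Its log2 fold change against VPA was -1.60 ± 0.41 SE (adjusted p = 0.0261), the largest of the 7. MX1 passed the low-count filter in this comparison only with its VPA libraries, where it was high. Its call is thus no support for a fall.

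PARP9 and DTX3L form a complex that modifies histones and viral proteins with ADP-ribose and ubiquitin, and their genes start side by side on chromosome 3 from the shared window shown above. PARP9 was counted 205, 222 and 187 times in vehicle, 185, 212 and 231 with VPA, and 135, 138 and 122 with VPA + Rapamycin. The last were below all other libraries, and vehicle and VPA overlapped. Its log2 fold change against VPA was -0.65 ± 0.16 SE (adjusted p = 0.0192). DTX3L was counted 171, 165 and 184 times in vehicle, 120, 133 and 169 with VPA, and 116, 133 and 97 with VPA + Rapamycin. Its estimate against VPA was -0.26 ± 0.19 SE and did not pass (adjusted p = 0.455). The genes share 217 exon bases on opposite strands, so part of their reads cannot be assigned with certainty.

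TRIM25 was counted 474, 344 and 337 times with VPA + Rapamycin, and both TRIM25 (log2 fold change -0.47 ± 0.13 SE, adjusted p = 0.0316) and PARP14 (-0.47 ± 0.13 SE, adjusted p = 0.04) were lower than with VPA. PARP14 had also been lowered by VPA, whereas BST2, IFIT1 and TRIM25 had been raised by it. ISG15, MX1 and PARP9 had not passed with VPA. All of these comparisons use the same VPA libraries, so a high or low VPA value enters both.

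Of ISG15 and the ligases and transferases listed with it, 4 of 6 were lower, where 3.73% of all genes were, and 0 of 6 were with all 9 libraries in a single fit. Differences between the role groups were not tested. ISG15 with those ligases and transferases had a summed normalized level of 1576 to 1741 in VPA libraries, 1085 to 1225 in VPA + Rapamycin libraries and 1362 to 1730 in vehicle. Of the 7 transcription factors 0 passed by edgeR or DESeq2, with 1 (STAT2) at an unadjusted p under 0.05, and the median log2 fold change was 0.01. STAT2 had an estimate of 0.25 ± 0.09 SE (adjusted p = 0.0832) and IRF7 of 0.45 ± 0.22 SE (adjusted p = 0.257). Of the 4 sensors and adaptors tested 0 passed by edgeR or DESeq2 and 2 had an unadjusted p under 0.05. All 4 estimates were below 0, with DDX58 at -0.46 ± 0.14 SE (adjusted p = 0.0515). The estimates of OAS1 (-0.97 ± 0.50 SE) and OAS3 (-1.41 ± 0.44 SE, adjusted p = 0.0644) were also below 0 and did not pass, and SAMHD1 had one of -0.32 ± 0.11 SE (adjusted p = 0.0959).

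Of the 16 tested members with an ISRE core in their promoter, 6 were lower with Rapamycin added (BST2, IFIT1, ISG15, MX1, PARP14 and PARP9), and of the 10 without, 1 (TRIM25). Their median log2 fold changes were -0.38 and -0.19. Of tested genes with the core that are not members, 12 of 313 were lower (3.83%), beside 4.14% of the 11360 tested genes without it, members included. In VPA against vehicle, 3 of 17 tested members with the core were higher and 1 lower (median -0.07). Of the 11 without it, 4 were higher and 1 lower (median 0.34). In VPA + Rapamycin against vehicle, 0 of 17 with it were higher and 4 lower (median -0.30). Of the 9 without it, 1 was higher and 0 lower (median 0.04). These shares are a description, as the members were chosen as interferon-stimulated genes. They count OAS1, MX1 and IFIT3, each of which passed the low-count filter only with the libraries of the condition where it was higher.

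With all 9 libraries in a single fit, which shares the spread of the vehicle libraries, 1 member was lower (IFIT1, adjusted p = 0.0435), and BST2, ISG15, MX1, TRIM25, PARP9 and PARP14 did not pass (adjusted p = 0.0877 for BST2). The same fit called 69 genes lower in all, against 646. Leaving out 1 library gave 4 members without VPA replicate 1, 2 or 3 and 3 without VPA + Rapamycin replicate 3, with IFIT1, BST2 and ISG15 called each time, while MX1, TRIM25, PARP9 and PARP14 were lost in 5, 4, 3 and 5 of these 6 fits. All genes called lower numbered 355, 297 and 429 without VPA replicate 1, 2 and 3, and 346 without VPA + Rapamycin replicate 3. The summed level of 8 mesenchymal markers was higher with VPA and lower with Rapamycin added, as were BST2, IFIT1 and TRIM25. PARP14 was instead lowered by VPA, and ISG15, MX1 and PARP9 were not called with VPA. The normalized sum was 2479 to 5230 in vehicle, 9531 to 12119 with VPA and 4238 to 6320 with VPA + Rapamycin. With VPA 2 of 8 were higher, and the estimates of 5 were above 0 and of 3 below. With Rapamycin added 6 of 8 were lower, and all 8 estimates were below 0. None of the 8 was at 0 over a whole condition, but PRRX1 was at 0 in vehicle replicates 1 and 2. COL1A1 and COL1A2 held most of the sum, and the part of this shift in the result was not tested.

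The third comparison asks which members still differed from vehicle when Rapamycin accompanied VPA. Of 31 tested, 1 was higher, SAMHD1, and 6 were lower, PARP14, TRIM22, IFITM2, PARP9, IFIT3 and DTX3L (edgeR quasi-likelihood test). These were 3.23% and 19.4% of the members, where 9.81% of all 17383 genes tested were higher and 9.22% lower (19.0% in either direction). The share lower counts IFIT3, which passed the low-count filter only through its vehicle libraries. The median log2 fold change of the members was -0.19, beside -0.00 for all genes. Ranges lay apart with VPA + Rapamycin higher in 2 members and lower in 10, where all genes gave 20.3% and 18.2%.

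SAMHD1 stayed 2.12-fold above vehicle (log2 fold change 1.09 ± 0.15 SE, adjusted p = 0.00105). Of the other 7 members raised by VPA, 6 were tested against vehicle here and 0 passed by edgeR, with BST2, IRF3 and IFI6 at an unadjusted p under 0.05 and IRF3 called by DESeq2. The estimates of these were 0.87 ± 0.37 SE for BST2 (adjusted p = 0.121), 0.70 ± 0.23 SE for IRF3 (adjusted p = 0.0595) and 0.52 ± 0.22 SE for IFI6 (adjusted p = 0.112). A p that misses the threshold does not show that these levels were back at that of vehicle, and the ranges of IFI6 did lie apart. OAS1, not tested here, was counted 10, 10 and 7 times with VPA + Rapamycin, above the vehicle range.

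PARP14 and TRIM22 were lowest with both compounds, at 0.46-fold (log2 fold change -1.13 ± 0.16 SE, adjusted p = 0.00137) and 0.37-fold of vehicle (-1.44 ± 0.24 SE, adjusted p = 0.00333). PARP9 (-0.70 ± 0.17 SE, adjusted p = 0.0191) and its partner DTX3L (-0.65 ± 0.18 SE, adjusted p = 0.0314) were both below vehicle in log2 fold change. IFITM2 was counted 390, 237 and 200 times in vehicle, 224, 186 and 154 with VPA, and 151, 163 and 115 with VPA + Rapamycin. Its ranges against vehicle lay apart, with a log2 fold change of -0.997 ± 0.23 SE (adjusted p = 0.0145).

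The other IFITM genes had estimates in the same direction that did not pass by edgeR, -1.10 ± 0.41 SE for IFITM1 (adjusted p = 0.0829) and -0.50 ± 0.18 SE for IFITM3 (adjusted p = 0.0782), while DESeq2 called all 3. IFIT3 was counted 32, 10 and 11 times in vehicle and 3, 4 and 3 times with VPA + Rapamycin, near the floor, with a log2 fold change of -2.40 ± 0.64 SE (adjusted p = 0.025). It passed the low-count filter only through its vehicle libraries, so its call is no support for a fall. IFIT3 lies within the annotated span of LIPA, which had a mean count of 2357, and shares no exon bases with it.

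Without vehicle replicate 1 the members higher than vehicle went from 1 to 5, and without vehicle replicate 3 those lower went from 6 to 11. Those lower numbered 2, 3 and 2 without VPA + Rapamycin replicate 1, 2 and 3. All genes higher went from 1705 to 2204 without vehicle replicate 1, and all genes lower from 1602 to 1987 without vehicle replicate 3. All genes lower numbered 534, 635 and 677 without VPA + Rapamycin replicate 1, 2 and 3. SAMHD1, PARP14 and TRIM22 were called in each of these fits, whereas IFIT3 (adjusted p up to 0.108), IFITM2 (0.0638), PARP9 (0.0879) and DTX3L (0.128) were each lost in at least 1.

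Of the 37 members with a row, 19 were called in no comparison, and these include the 4 set apart beside OAS1. EIF2AK2 (PKR), a kinase that halts translation on double-stranded RNA, was among the most abundant members, with a normalized level of 1300 ± 119 in vehicle, 1074 ± 136 with VPA and 1065 ± 125 with VPA + Rapamycin (SD, n = 3). Its log2 fold changes were -0.29 ± 0.13 SE with VPA and -0.30 ± 0.13 SE with both compounds (adjusted p = 0.103 and 0.123). The vehicle and VPA ranges of EIF2AK2 overlapped, while its VPA + Rapamycin range lay below that of vehicle. IFI27, a mitochondrial and nuclear envelope protein, had normalized levels of 36.7 ± 8.26, 28.6 ± 8.11 and 42.4 ± 11.9973 in the same order. ISG20, an exonuclease that degrades viral RNA, had 20.9 ± 7.48, 10.504 ± 6.21 and 18.2 ± 6.46. IFI35, which binds NMI, had 20.1 ± 18.7, 9.09 ± 3.54 and 7.28 ± 2.22, its vehicle mean resting on vehicle replicate 2 at 41.3. The conditions overlapped in these 3 genes.

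Other genes of the pathway, 91 by a list of receptors, signalling genes, regulators and further interferon-stimulated genes, gave 69 with a row. With VPA 11 of the 50 tested were higher and 2 lower, where 16.4% and 15.7% of all genes were. HERC5, the ligase that attaches ISG15 to its targets, was counted 75, 40 and 42 times in vehicle, 230, 182 and 269 with VPA, and 150, 99 and 116 with VPA + Rapamycin. The conditions did not overlap, with a log2 fold change of 2.04 ± 0.25 SE with VPA (adjusted p = 0.000212). ZC3HAV1 (ZAP), which targets viral RNA for decay, followed the same order, at 328, 289 and 202 counts in vehicle, 768, 773 and 754 with VPA, and 522, 458 and 388 with VPA + Rapamycin.

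ENPP1, which degrades the ligand of STING, rose by 1.07 ± 0.16 SE in log2 with VPA and IKBKE, a kinase that phosphorylates IRF3 and IRF7, by 1.83 ± 0.34 SE. TRIM14, an adaptor at mitochondria, rose by 0.99 ± 0.21 SE. IFNGR2, a receptor chain for type II interferon, and TRIM5, a restriction factor for retroviruses, had log2 fold changes of -0.53 ± 0.12 SE and -0.48 ± 0.12 SE, and were the 2 lowered.

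With Rapamycin added to VPA, 4 of 50 were lower by edgeR and 3 by DESeq2, where edgeR called 3.73% of all genes lower. By either tool 0 were higher, with 12 at an unadjusted p under 0.05 in either direction. The 4 were HERC5 (log2 fold change -0.87 ± 0.18 SE), ZC3HAV1 (-0.73 ± 0.10), TRIM14 (-0.68 ± 0.16) and EPSTI1 (-2.02 ± 0.48), the last at 34, 29 and 24 counts with VPA and 9, 8 and 4 with VPA + Rapamycin. EPSTI1 is counted in the 4 but passed the low-count filter only through its VPA libraries. Its call is thus no support for a fall. Against vehicle, VPA + Rapamycin gave 5 of 47 higher (10.6%), JAK1, IKBKE, ENPP1, HERC5 and ZC3HAV1, and 3 lower (6.38%), IFNGR2, LGALS3BP and TRIM5. These shares are near or below the 9.81% and 9.22% of all genes.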

How the data were processed

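Poly-A RNA of 9 libraries was sequenced, and the submitters' processing notes name HISAT2 2.0.5 and featureCounts 1.5.0-p3. Strand setting and genome build are not given in the sources used here, but gene coordinates equal GENCODE 29 on GRCh38 for 31589 of 31589 genes. The authors deposited 1 table per pair of conditions, holding raw counts per gene and FPKM. The columns of size-factor-normalized values (18) and the authors' own fold changes and p-values were not used.

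Each pair was fitted on its whole table with edgeR 4.0.16 in R 4.3.3 (TMM, filterByExpr, quasi-likelihood F test, Benjamini-Hochberg adjustment over all genes tested, threshold 0.05, two-sided). The standard error was derived from the estimate and its F statistic. Normalized levels are counts scaled by TMM factors over 9 libraries. An exact permutation test of 3 against 3 cannot give a two-sided p below 0.1 and was not used. The steps were tested on simulated data. Alternatives were DESeq2 1.42.0, other normalizations and filters, a minimum fold change, a single fit, a replicate block, and leaving out each library.

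Members with a mean under 10 counts were set apart. Every member called is named, and other pathway genes were named by smallest p, up to 5 per direction, plus genes singled out after their values were seen (IFNAR1 and CGAS). The members and lists were chosen with earlier results of these data known. An overlapping gene is named where its mean count exceeds 10% of the member's own, and those not given above follow. On the opposite strand, IFIT1 overlaps the span of LIPA (mean count 2357) and TRIM22 that of TRIM5 (546.6), with 0 shared exon bases. IRF1 shares 1716 exon bases with C5orf56, EIF2AK2 shares 35 with GPATCH11 and IFIT2 shares 65 with LIPA, also on the opposite strand. IFIT2 shares 356 with AL353751.1 on the same strand. Motifs were searched in 30 of 39 member promoters from RefSeq. Results for certain items are not reported here.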

Additional observations from a re-analysis of the deposited data

How the results depend on the processing

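Of 26 calls of members over the 3 comparisons, 10 were kept under every alternative run, 16 were lost under at least 1 and 0 reversed. Of 69 results not called, 37 kept their side and direction, 20 passed under at least 1 alternative and 12 turned direction. Members higher and lower with VPA (8 and 4) numbered 3 and 0 where a change of 1 in log2 was also required, and 7 were lower with no filter on low counts. Members lower with Rapamycin added to VPA (7) numbered 1 with all 9 libraries in a single fit and 2 with that requirement. Against vehicle, VPA + Rapamycin gave 2 members higher by DESeq2 (in place of 1), 3 with no filter and 2 in the single fit, and 3 lower (in place of 6) with that requirement. Leaving out 1 library gave 4 to 9 higher and 2 to 8 lower with VPA, 0 to 0 higher and 3 to 6 lower with Rapamycin added, and 1 to 5 higher and 2 to 11 lower against vehicle. The counts over all genes moved in these fits as well. DESeq2 size factors and upper-quartile scaling in edgeR gave the same 6 counts as TMM. The single fit pools the spread of 3 conditions and also tests another set of genes (18008, against 17317 for VPA + Rapamycin against VPA). The causes of these shifts were not tested.

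Same-numbered libraries did not deviate together throughout. The mean correlation of their deviations was 0.01, 0.03 and 0.11 for the 3 comparisons in the order of the report, and over 0.1 in 0, 0 and 1 of 3 pairs, with 2, 3 and 5 of 6 libraries correlating best with their own number. With the replicate number as a block, members higher and lower were 9 and 6, 0 and 8, and 3 and 8. OAS3 against vehicle then turned to 0.0312 (from -0.06).

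Estimates that turned direction were not called, and leaving out 1 library gave ranges in log2. With VPA, MAVS ran from -0.0952 to 0.0932 and PARP9 from -0.11 to 0.0552. With Rapamycin added, IRF1 ran from -0.198 to 0.514 (-0.00165 with no filter), IRF2 from -0.095 to 0.0612, IRF3 from -0.207 to 0.0966, IFIT5 from -0.0451 to 0.078 and EIF2AK2 from -0.0734 to 0.0958. Against vehicle, STAT3 ran from -0.00912 to 0.127, IFIH1 from -0.464 to 0.694, MAVS from -0.148 to 0.0392, OAS3 from -0.966 to 1.12 and IFI27 from -0.0555 to 0.324. Depth limits TMEM173, GBP2, IFIT2, IFI44L and the interferon genes, which were at or near the floor of 3 counts.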
